A study of Mus musculus with 18 samples.

Results

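The genes described here are the integrin subunits and the cadherins with numbered names, chosen by gene symbol alone among protein coding genes (symbols starting Itga or Itgb, without the binding proteins and Itgbl1, or Cdh followed by a number). There were 50 such genes, 27 integrins and 23 cadherins, of 54532 genes in the table. Counts per gene came from bulk sequencing of poly(A) RNA from 10T1/2 cells, a mouse line of multipotent fibroblasts, and the comparisons ask how loss of the transcription factor FOXS1 bears on their response to a profibrotic and a proadipogenic stimulus. WT cells and FOXS1 KO clones 1 and 2, made with CRISPR-Cas9 and each grown from 1 cell, were left uninduced or were stimulated, which here means 12 h of TGF-β1 at 1 nM and, after that, 48 h of the adipogenic mixture DMII (insulin, indomethacin, dexamethasone and the phosphodiesterase inhibitor 3-isobutyl-1-methylxanthine). Each of the 6 groups had 3 libraries, which are not stated to be separate cultures, so p-values measure the spread among these libraries only. Since TGF-β1 and DMII were given in sequence, their effects cannot be told apart, and neither can loss of FOXS1 and other features of a clone where the clones share them.

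Integrins are receptors made of 1 α and 1 β subunit that tie the cytoskeleton to the extracellular matrix, and the pair decides the ligand. α5β1 binds fibronectin, αv with β1, β3, β5, β6 or β8 binds RGD-containing ligands such as vitronectin and latent TGF-β, α1, α2, α10 and α11 with β1 bind collagens, and α3, α6 and α7 with β1, or α6 with β4, bind laminins. Cadherins join cells to each other through calcium-dependent contacts and are linked to actin by catenins. E-cadherin (Cdh1) is typical of epithelia, and N-cadherin (Cdh2) and OB-cadherin (Cdh11) of mesenchymal cells. In bulk RNA, fewer cells of a kind and less RNA per cell cannot be told apart.

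Library totals ran from 15576685 to 42005596 counts. Levels are given as CPM (counts scaled by library total and TMM), and a gene was called a DEG when edgeR's quasi-likelihood test over 14317 genes gave it a log2 difference of more than 1 in either direction with an adjusted p under 0.05. Foxs1 RNA itself was at 1.64 to 3.25 CPM in the 6 WT libraries and at 21.1 to 56.8 CPM in the 12 libraries labelled FOXS1 KO. Counts per gene do not show an edit within the exon, so this does not check the label. Summed levels of the 10 fibroblast markers were 34187 to 79677 CPM and those of 9 epithelial markers 0 to 2.43 CPM. Col1a1, Col1a2, Col3a1 and Vim made up most of the fibroblast sum. Pdgfra was a DEG below WT in both clones, at -1.60 and -1.26 uninduced and -1.24 and -1.28 stimulated (log2, clones 1 and 2). Mean Thy1 was 59.6 and 49.0 CPM in uninduced and stimulated WT. It was 184 and 161 CPM in clone 1 and 0.616 and 0.342 CPM in clone 2. The other tested markers of this list were not DEGs relative to WT. Fap, a fibroblast marker, had no count in stimulated clone 1 or in either group of clone 2.

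Of the 50 members, 33 passed the filter on low counts (23 integrins and 10 cadherins). Of the 17 that did not, Cdh7, Cdh8, Cdh9, Cdh12, Cdh20, Cdh22 and Itgb2l had 0 counts in all libraries. Cdh17 had 88 counts over the 18 libraries, Cdh5 16, Itgb6 14, Cdh3 and Cdh19 12 each, Itgad 8, Cdh4 and Cdh15 2 each, and Cdh16 and Itgam 1 each. VE-cadherin (Cdh5), which defines endothelium, and the β6 subunit of epithelia were thus near 0. A member could pass through the 1 group in which it was high.

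Promoters of 300 bases are shown for Itga11 and Cdh6, which fell most in stimulated cells of both clones, and for Itga5, the α subunit with the highest level, which rose. They run from 250 bases before to 50 after the RefSeq start in GRCm38.p6 and lie at chr9:62677605-62677904 on the plus strand for Itga11, chr15:13173626-13173925 on the minus strand for Cdh6 and chr15:103366742-103367041 on the minus strand for Itga5. Capitals mark the SMAD box CAGAC on either strand, which of the patterns searched was the 1 found in any of the 3.
Itga11: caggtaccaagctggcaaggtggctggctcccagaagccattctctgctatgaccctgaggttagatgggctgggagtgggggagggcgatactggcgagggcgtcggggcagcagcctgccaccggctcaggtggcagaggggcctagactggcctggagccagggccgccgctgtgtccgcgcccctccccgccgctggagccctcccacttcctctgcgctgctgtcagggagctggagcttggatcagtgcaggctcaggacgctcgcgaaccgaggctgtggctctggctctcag
Cdh6: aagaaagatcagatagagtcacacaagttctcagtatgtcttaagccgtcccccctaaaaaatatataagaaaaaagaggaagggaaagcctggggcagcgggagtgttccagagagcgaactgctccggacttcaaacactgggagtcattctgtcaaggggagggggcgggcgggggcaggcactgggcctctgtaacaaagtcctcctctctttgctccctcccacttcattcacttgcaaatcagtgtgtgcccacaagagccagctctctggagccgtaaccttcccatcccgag
Itga5: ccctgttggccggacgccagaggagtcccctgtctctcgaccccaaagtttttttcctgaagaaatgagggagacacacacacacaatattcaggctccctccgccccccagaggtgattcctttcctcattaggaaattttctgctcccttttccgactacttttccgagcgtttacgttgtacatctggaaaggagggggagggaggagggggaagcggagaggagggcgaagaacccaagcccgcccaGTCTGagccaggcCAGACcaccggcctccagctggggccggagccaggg

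A total of 32 members had a promoter of this length in RefSeq, and 6 patterns were searched on both strands. A member could have more than 1 promoter, as Cdh7 did, and was counted if any of them matched. The percentages are shares of single promoters, so counts of members and percentages are not directly comparable. CAGAC was in 22 of the 32 and in 49.6% of all 32851 promoters. The forkhead core TGTTTA was in 3 members (Cdh12, Itgav and Itgb6) and in 13.4% of all promoters, and its longer form TGTTTAC, searched as well, was in 0 members and in 3.65% of all. The AP-1 site TGANTCA was in 3 members and 7.81% of all, the TEAD site GGAATG in 5 and 14.7%, and the CArG box in 1 member (Itgb6) and 1.63%. A match describes these letters in this window only.

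Per length of transcript (FPKM), a few members made up most of each family in every group. Itgb1 had the highest mean over all libraries at 230.2 FPKM, followed by Itgb5 at 113.9, Itga5 at 86.8, Cdh11 at 52.7 and Cdh2 at 41.9. In WT uninduced cells Itga5 held 53.6% ± 0.889 (SD, n = 3) of the summed FPKM of the α subunits and Itgav 26.3% ± 1.69. In WT stimulated cells Itga11 came second with 30.9% ± 0.972, whereas it held 1.49% ± 0.461 in stimulated clone 1 and 0.0350% ± 0.0299 in stimulated clone 2. The share of Itga5 in stimulated cells was 43.8% ± 1.10 in WT, 72.3% ± 1.08 in clone 1 and 80.6% ± 0.408 in clone 2. Lengths are those of all exons of a gene together, so a gene with a long 3′ exon weighs less.

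**Figure D1:**
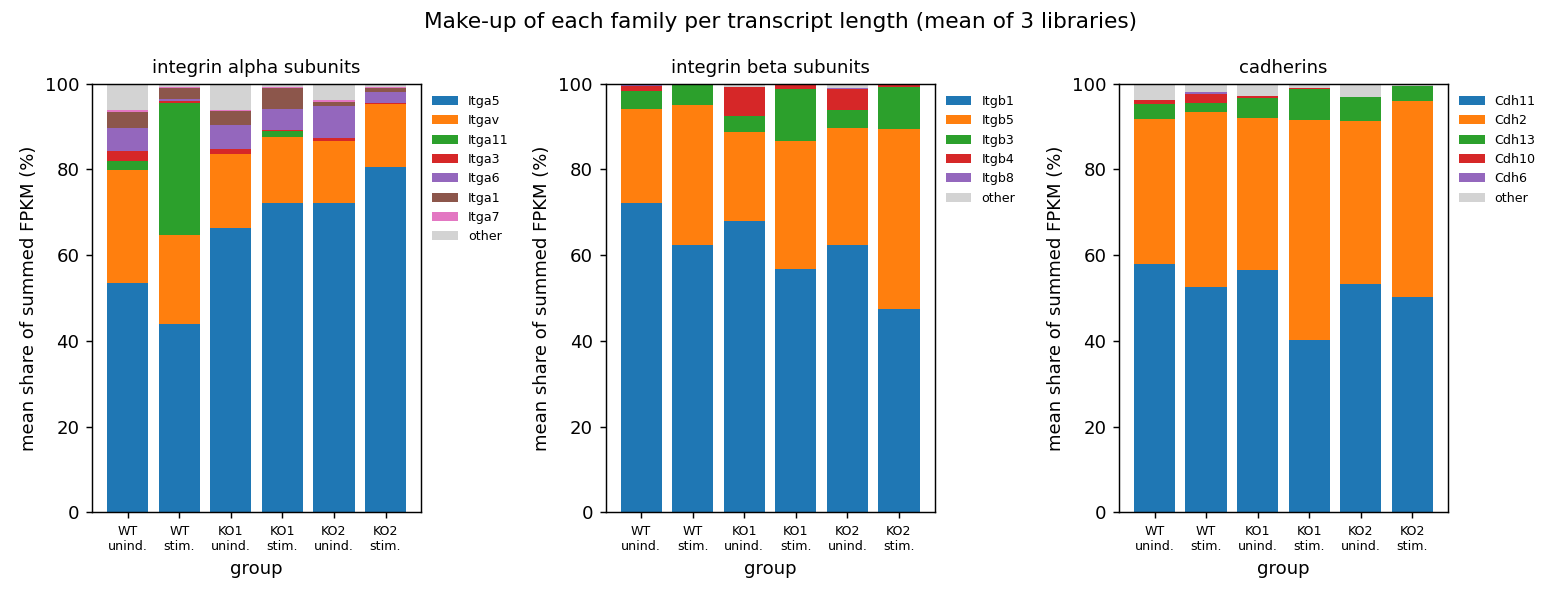
Mean share (%) of each gene in the summed FPKM of the α subunits, the β subunits and the cadherins, as stacked bars for the 6 groups (mean of 3 libraries each). Itga11 holds 30.9% of the α subunits in WT stimulated cells and under 2.2% in each of the other groups, and Cdh11 and Cdh2 hold most of the cadherins throughout.

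In stimulated cells, 17 of the 33 tested members were DEGs in clone 1 relative to WT (9 higher and 8 lower), where 19% of all genes tested were DEGs (9.42% higher and 9.6% lower). In clone 2 relative to the same WT libraries 16 were DEGs (8 higher and 8 lower), beside 16.9% of all genes (7.95% higher and 8.94% lower). The members higher in both clones were Itga2b, Itga5, Itga6, Itga10, Itgb2, Itgb3 and Itgb4, and those lower in both were Itga9, Itga11, Cdh6, Cdh10, Cdh18 and Cdh24. In uninduced cells 8 members were DEGs in clone 1 (3 higher and 5 lower) and 13 in clone 2 (4 higher and 9 lower), beside 15.1% of all genes in either clone (6.32% higher and 8.73% lower in clone 1, 5.54% and 9.56% in clone 2). Itgb2 and Itgb4 were higher in both clones before stimulation, and Itga9, Itga11, Cdh10 and Cdh18 were lower. The median log2 difference over the tested members was between -0.15 and 0.16 in these 4 comparisons, and that over all genes between -0.02 and -0.01.

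**Figure D2:**
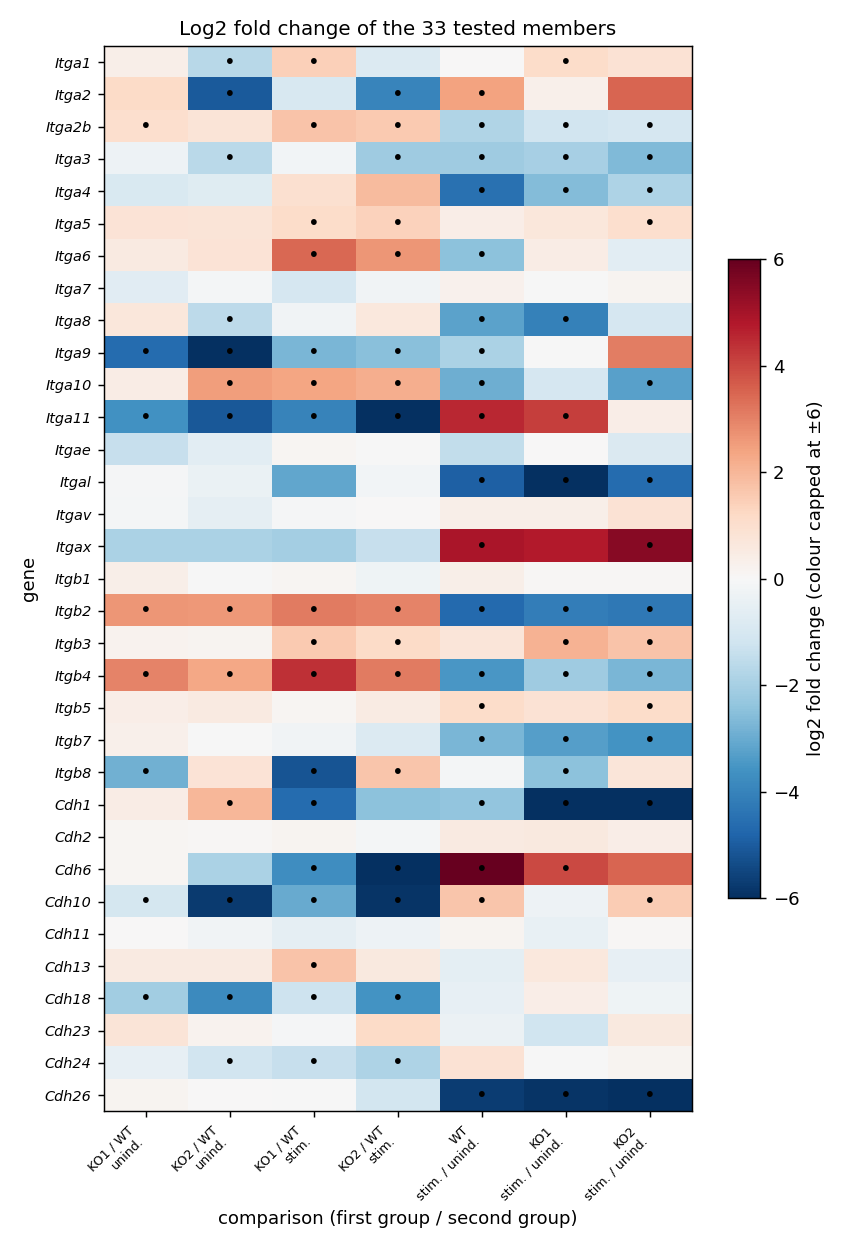
Log2 fold change (colour, capped at 6 in either direction) of the 33 tested members (rows) in the 4 comparisons of a clone with WT and the 3 of stimulated with uninduced cells (columns). Dots mark DEGs, of which there are 17 and 16 in stimulated clones 1 and 2 relative to WT and 19 in the response of WT.

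Among the collagen receptors, Itga11 carried the largest differences. Itga11 (chromosome 9, 62677826 to 62783982, GRCm38), the α11 subunit of fibroblasts, was at 7.05, 8.65 and 10.8 CPM in WT uninduced libraries and at 210, 215 and 187 CPM in WT stimulated libraries. In clone 1 it was at 1.13, 0.483 and 0.518 CPM uninduced and 16.2, 14.0 and 8.56 CPM stimulated. In clone 2 it was at 0.268, 0.266 and 0.232 CPM uninduced and 0.616, 0.0654 and 0.301 CPM stimulated. Every library of either clone lay below every WT library of the same treatment, and the clone 2 groups overlapped each other. Relative to WT, Itga11 in stimulated cells fell by 3.99 ± 0.19 (SE) on the log2 scale in clone 1 (adjusted p = 5.03e-11) and was -9.20 ± 0.32 in clone 2 (adjusted p = 9.74e-13). Without stimulated library 1 of clone 2 the latter was -10.04. Its response to stimulation was 4.51 ± 0.20 in WT and 4.16 ± 0.34 in clone 1, and the log2 difference between these responses was -0.35 ± 0.53 (adjusted p = 0.688). In clone 2 the response was 0.39 ± 0.89 (adjusted p = 0.749), which differed from that of WT by -4.12 ± 0.98 (adjusted p = 0.0045). Clone 1 thus held less Itga11 than WT at both times with a response whose difference from WT was within its error, while the response of clone 2 was lower than that of WT.

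The other collagen-binding subunits differed between the clones, Itga10 in uninduced cells only. Itga1, which pairs with β1 and is given by library although the rule for named genes leaves it out, a choice made after its values were seen, was at 63.1, 52.0 and 55.6 CPM in WT uninduced and 58.0, 61.5 and 54.7 CPM in WT stimulated libraries. In stimulated clone 1 it was at 139, 171 and 153 CPM, which was higher than WT by 1.41 ± 0.08 (adjusted p = 3.74e-16), and in stimulated clone 2 at 32.5, 32.4 and 34.9 CPM, a log2 difference from WT of -0.80. In uninduced clone 2 Itga1 fell by 1.65 ± 0.08 relative to WT. Itga1 and Itga2 lie on chromosome 13, where 370 tested genes averaged 5 CPM or more across the libraries, which Itga2 did not. The median log2 difference of these 370 genes from WT was -0.25 and -0.28 in uninduced and stimulated clone 2. The part of this shift in the values of Itga1 and Itga2 was not tested. Itga2, the α2 subunit, was low throughout, with 142 counts over all libraries. It was at 0.685, 1.60 and 0.767 CPM in WT stimulated libraries and at 0, 0.262 and 0.267 CPM in WT uninduced libraries, a rise of 2.42 ± 0.71 (adjusted p = 0.00445) that was 1.95 without WT stimulated library 2 (adjusted p = 0.0503). Uninduced clone 2 had 0 counts of Itga2 against 12 in WT, which is at least 5.42-fold lower taking 3 counts over the group as the floor. In stimulated clone 2 it was at 0.0560, 0.131 and 0 CPM and fell by 3.95 ± 0.89 relative to WT (adjusted p = 0.000426), while stimulated clone 1 at 0.639, 0.627 and 0.273 CPM gave a log2 difference of -0.98 (adjusted p = 0.179). The study lists Itga2 and Cdh6 among its epithelial mesenchymal transition genes, a choice made on these same libraries that adds no independent evidence of direction.

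Itga10, the α10 subunit of cartilage, was at 0.175, 1.89 and 1.49 CPM in WT uninduced and 0.196, 0.130 and 0.135 CPM in WT stimulated libraries. Stimulated clone 1 had 0.745, 0.848 and 0.865 CPM and stimulated clone 2 had 1.06, 0.327 and 0.722 CPM, which were higher than WT by 2.39 ± 0.63 (adjusted p = 0.00178) and 2.19 ± 0.67 (adjusted p = 0.00632). Without stimulated library 1 of clone 2 the latter was 1.76 (adjusted p = 0.0592). Uninduced clone 2 stood apart with 6.42, 8.15 and 6.43 CPM, and uninduced clone 1 had 1.43, 1.18 and 2.33 CPM. Another gene on the same strand covers 33.5% of the exonic bases of Itga10, and how shared reads were counted is not given. Summed over α1, α2, α10 and α11, the level went from 5.03 ± 0.336 FPKM in uninduced to 43.1 ± 3.09 FPKM in stimulated WT cells, from 4.41 ± 0.147 to 11.05 ± 1.05 in clone 1 and from 2.38 ± 0.140 to 2.00 ± 0.139 in clone 2 (SD, n = 3).

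The laminin-binding subunits α6 and β4 went the other way. Itga6 (chromosome 2, 71745616 to 71858416) was at 44.1, 39.3 and 35.5 CPM in WT uninduced and 9.10, 7.43 and 5.01 CPM in WT stimulated libraries. It was at 50.3, 59.8 and 61.9 CPM in uninduced and 76.0, 80.2 and 74.4 CPM in stimulated clone 1. Clone 2 had 71.9, 66.6 and 69.3 CPM uninduced and 47.3, 46.2 and 40.0 CPM stimulated. The fall of Itga6 in WT, by 2.47 ± 0.14 on the log2 scale (adjusted p = 7.46e-13), was thus not seen in clone 1, whose response was 0.43 ± 0.11, and was smaller in clone 2 at -0.64 ± 0.11. Both differences in response passed the test, at 2.89 ± 0.18 for clone 1 (adjusted p = 1.47e-11) and 1.83 ± 0.18 for clone 2 (adjusted p = 4.03e-08). In stimulated cells Itga6 was higher than in WT by 3.43 ± 0.13 and 2.64 ± 0.14.

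Itgb4 (chromosome 11, 115974709 to 116008412), the partner of α6 in hemidesmosomes, was at 20.1, 22.2 and 24.3 CPM in WT uninduced libraries and at 1.61, 2.51 and 1.71 CPM after stimulation. In clone 1 it was at 173, 179 and 183 CPM uninduced and 43.2, 41.7 and 38.4 CPM stimulated. In clone 2 it was at 112, 108 and 115 CPM uninduced and 16.9, 15.2 and 18.2 CPM stimulated. Stimulated libraries lay below uninduced ones in each genotype, and every clone library lay above the WT libraries of its treatment. Itgb4 was higher than in WT by 3.00 ± 0.08 and 2.32 ± 0.08 in uninduced clones 1 and 2 and by 4.39 ± 0.11 and 3.10 ± 0.13 in stimulated ones, with adjusted p between 7.05e-24 and 7.19e-19. An antisense gene lies over 7.66% of its exonic bases. Itga3, the α3 subunit of the same class, fell with stimulation in each genotype (-2.12 in WT, -1.98 in clone 1 and -2.64 in clone 2) and differed from WT in clone 2 by -1.61 uninduced and -2.13 stimulated. Without stimulated library 1 of clone 2 the latter was -3.57. Itga7 was a DEG in none of the comparisons.

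**Figure D3:**
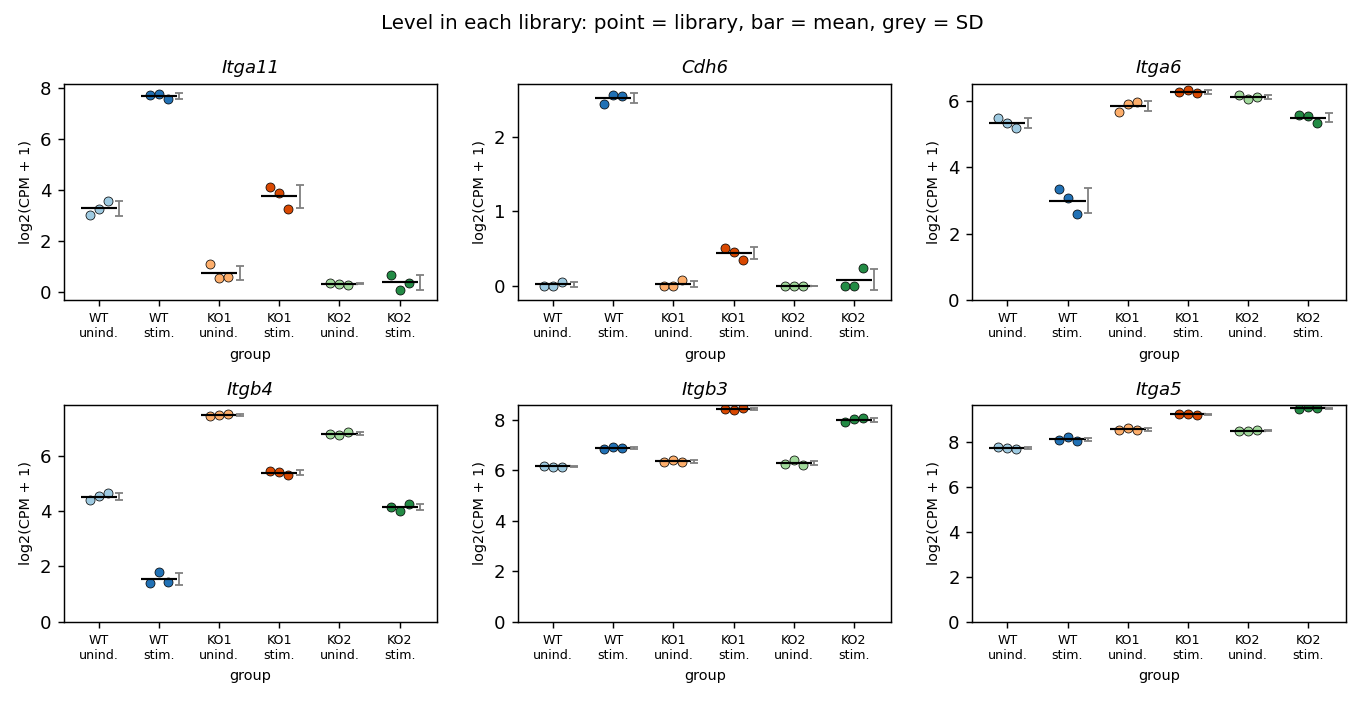
Level, as log2(CPM + 1), of Itga11, Cdh6, Itga6, Itgb4, Itgb3 and Itga5 in each of the 18 libraries (points) by group, with the mean as a bar and the SD (n = 3) in grey. Itga11 and Cdh6 are highest in WT stimulated libraries, and Itga6 and Itgb4 are lowest there.

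The fibronectin and vitronectin receptors were the most abundant and moved by smaller folds. Itga5 (chromosome 15, 103344286 to 103366763) was at 220, 211 and 208 CPM in WT uninduced and 270, 297 and 268 CPM in WT stimulated libraries. It was at 370, 400 and 370 CPM in uninduced and 603, 608 and 599 CPM in stimulated clone 1. In clone 2 it was at 355, 365 and 367 CPM uninduced and 723, 748 and 728 CPM stimulated. No clone library overlapped WT, and in stimulated cells Itga5 was higher by 1.12 ± 0.04 in clone 1 (adjusted p = 4.38e-19) and by 1.40 ± 0.05 in clone 2 (adjusted p = 2.24e-21). The uninduced log2 differences, 0.83 and 0.76, had adjusted p of 1.12e-15 and 7.28e-15 without reaching the fold threshold. Over the 407 tested genes of chromosome 15 that averaged 5 CPM or more across the libraries, the median was 0.46 in both uninduced clones. It was 0.45 and 0.43 in stimulated clones 1 and 2. Chromosome 15 also holds Cdh10 and, below this level, Cdh6, Cdh18 and Itgb7. The part of this shift in the values of Itga5 and these members was not tested.

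Itgb3 (chromosome 11, 104608000 to 104670476), the β3 subunit of the vitronectin receptor, was at 71.6, 68.5 and 69.6 CPM in WT uninduced and 113, 118 and 116 CPM in WT stimulated libraries. Clone 1 had 78.1, 84.0 and 79.1 CPM uninduced and 339, 330 and 348 CPM stimulated. Clone 2 had 75.2, 82.5 and 73.6 CPM uninduced and 237, 256 and 265 CPM stimulated. WT libraries lay below those of both clones in either treatment, by little before stimulation and by more after it. Its response was 0.73 ± 0.05 in WT, 2.08 ± 0.05 in clone 1 and 1.71 ± 0.05 in clone 2. The response was larger than that of WT by 1.35 ± 0.07 in clone 1 (adjusted p = 4.7e-15), and in clone 2 the difference of 0.98 ± 0.07 (adjusted p = 6.57e-12) was just short of the fold threshold. Its share of the summed β FPKM in stimulated cells was 4.88% ± 0.0632 in WT, 12.0% ± 0.273 in clone 1 and 9.79% ± 0.714 in clone 2.

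Itgb1, the common β1 chain, and Itgav were DEGs in no comparison. Itgb1 ran from 797 to 816 CPM in WT uninduced, 1003 to 1033 CPM in WT stimulated, 1029 to 1076 CPM in uninduced clone 1, 1060 to 1154 CPM in stimulated clone 1, 797 to 820 CPM in uninduced clone 2 and 844 to 858 CPM in stimulated clone 2. Its log2 difference from WT was 0.37 and -0.0023 in uninduced clones 1 and 2 and 0.12 and -0.27 in stimulated ones. Itgav was at 257, 219 and 209 CPM in WT uninduced libraries, at 161, 157 and 154 CPM in uninduced clone 2, and at 251 to 306 CPM in the 9 stimulated libraries. Itgb5, another αv partner, rose with stimulation by 1.12 ± 0.05 in WT and 1.09 ± 0.05 in clone 2, and its log2 response in clone 1 was 0.86.

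Itgb8, whose protein pairs with αv and binds latent TGF-β, is described although it lies outside the rule for named genes, since it was the 1 member that was a DEG in opposite directions in the clones, which was seen from its values. It was at 3.26, 4.72 and 4.96 CPM in WT uninduced and 4.55, 4.02 and 3.38 CPM in WT stimulated libraries. Clone 1 had 0.461, 0.322 and 0.984 CPM uninduced and 0.266, 0.0737 and 0 CPM stimulated, and clone 2 had 8.10, 7.48 and 7.54 CPM uninduced and 12.2, 13.5 and 12.3 CPM stimulated. In stimulated cells it fell by 5.19 ± 0.42 relative to WT in clone 1 (adjusted p = 6.56e-12), or -6.42 without library 1, and was higher by 1.67 ± 0.23 in clone 2 (adjusted p = 2.36e-07). The clones did not overlap in either treatment. Chromosome 12 holds Itgb8 and 357 tested genes that averaged 5 CPM or more across the libraries, which Itgb8 did not. The median of these 357 genes was -0.19 and 0.20 in uninduced clones 1 and 2 and -0.25 and 0.18 in stimulated ones. These medians had the directions of the Itgb8 values, and their part in them was not tested.

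**Figure D4:**
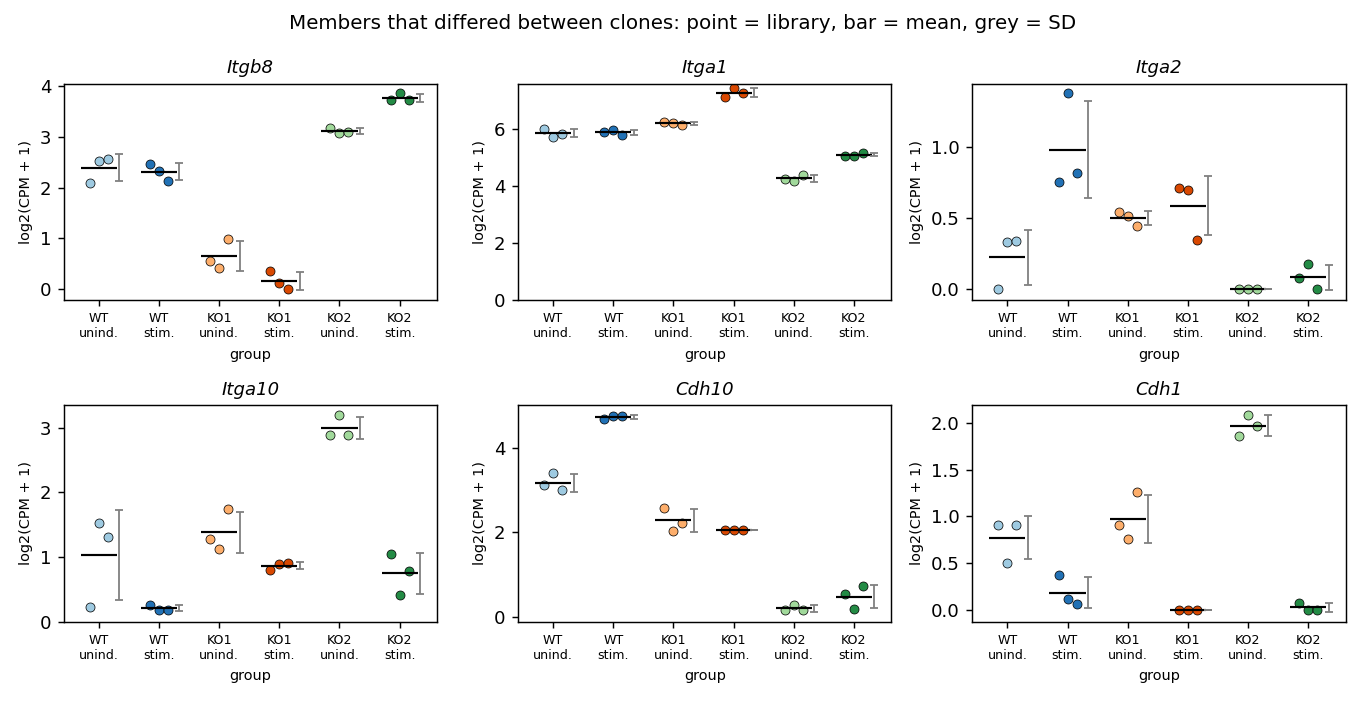
Level, as log2(CPM + 1), of Itgb8, Itga1, Itga2, Itga10, Cdh10 and Cdh1 in each of the 18 libraries (points) by group, with the mean as a bar and the SD (n = 3) in grey. Itgb8 is below WT in clone 1 and above it in clone 2, and Itga1 is higher in clone 1 than in clone 2 in both treatments.

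Integrins known from blood cells were low. Itgb2, the β2 chain of leukocyte integrins, was at 1.69, 1.15 and 1.07 CPM in WT uninduced, 7.84, 8.10 and 8.28 CPM in uninduced clone 1 and 8.45, 8.28 and 6.96 CPM in uninduced clone 2, higher by 2.65 ± 0.26 and 2.62 ± 0.26 (adjusted p = 5.45e-10 and 5.67e-10). After stimulation it was at 0.0489, 0.0432 and 0.0451 CPM in WT, 0.319, 0.258 and 0.774 CPM in clone 1 and 0.504, 0.327 and 0.361 CPM in clone 2. Stimulated clone 1 was higher than WT by 3.13 ± 0.64 (adjusted p = 0.000102), or 2.51 without library 3, and stimulated clone 2 by 2.98 ± 0.68 (adjusted p = 0.000427). The leukocyte markers Ptprc, Cd3e and Tyrobp had 0 counts in every group, and the summed level of the 8 markers was 0.349 to 1.15 CPM in WT uninduced, 0.965 to 1.24 CPM in uninduced clone 1 and 1.85 to 1.90 CPM in uninduced clone 2, with 3, 5 and 5 of the markers counted. By group means, Cd68 made up most of these sums (0.566, 0.818 and 1.33 CPM), and it was not a DEG relative to WT.

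Itga2b, the platelet αIIb chain, was at 2.27, 4.19 and 5.57 CPM in WT uninduced, 6.76, 9.87 and 8.44 CPM in uninduced clone 1 and 5.91, 7.53 and 7.65 CPM in uninduced clone 2. After stimulation it was at 0.978, 1.38 and 1.13 CPM in WT, 4.15, 3.36 and 4.01 CPM in clone 1 and 3.53, 4.12 and 2.65 CPM in clone 2. It was higher than WT in stimulated clones 1 and 2 by 1.71 ± 0.28 (adjusted p = 5e-06) and 1.55 ± 0.29 (adjusted p = 3.79e-05). The uninduced difference of 1.03 ± 0.23 in clone 1 was 0.76 without WT uninduced library 1 and 0.90 without library 2 of clone 1, both under the threshold. Itga9, also outside that rule and chosen after its values were seen, was at 3.96, 1.94 and 3.39 CPM in WT uninduced and at most 0.311 CPM in any clone library. Its call in stimulated clone 2, at -2.53 ± 0.84 (adjusted p = 0.0118), was lost without WT stimulated library 2 (-1.98, adjusted p = 0.0836) or library 2 of clone 2 (-2.01, adjusted p = 0.0607). Its uninduced values were -4.61 and -7.48 in clones 1 and 2, and -6.60 and -8.97 without library 3 of clone 1 and library 1 of clone 2. Mean Itga9 in these uninduced clones was 0.121 and 0.0074 CPM, near 0, so the sizes are fitted rather than measured. Itga8, the nephronectin receptor subunit, had log2 responses of -3.20 ± 0.14 in WT, -4.05 ± 0.14 in clone 1 and -0.98 ± 0.15 in clone 2, of which the last was under the fold threshold. Its uninduced mean was 22.9 CPM in WT, 36.3 in clone 1 and 7.58 in clone 2, the last a DEG below WT. After stimulation the means were 2.49, 2.15 and 3.85 CPM, and Itga8 was not a DEG relative to WT in either clone. The endothelial markers summed to 5.09 to 7.92 CPM in WT uninduced libraries and to at most 1.40 CPM in each other group, with Cldn5 at 0 throughout. Tek alone made up most of the sum in WT uninduced libraries (mean 5.91 CPM), where Kdr and Tie1 had 0 counts and the means of Emcn (0.0810 CPM) and Vwf (0.0127 CPM) were below those of uninduced clone 1 (0.416 and 0.229 CPM) and clone 2 (0.0934 and 0.371 CPM). The part of these markers in the Itga9 values was not tested.

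Stimulation itself changed 19 tested members in WT (6 higher and 13 lower), beside 19.9% of all genes (6.25% higher and 13.6% lower). It changed 15 in clone 1 (4 higher and 11 lower) and 15 in clone 2 (5 higher and 10 lower), beside 16.7% of all genes in clone 1 (5.95% higher and 10.7% lower) and 17.7% in clone 2 (6.46% and 11.2%). Itga2b, Itga3, Itga4, Itgal, Itgb2, Itgb4, Itgb7, Cdh1 and Cdh26 were DEGs with lower levels in all 3 genotypes, and 0 members were DEGs with higher levels in all 3. Itga5, Itgav, Itgb3, Itgb5 and Cdh2 had stimulated libraries above the uninduced ones in each genotype, with log2 differences that did not pass the fold threshold in all 3. The share of all tested genes that did so was not counted, nor was the share that were DEGs in the same direction in all 3 genotypes. In clone 2 the call of Itga4, at -1.84 (adjusted p = 0.0327), was lost without uninduced library 1 or 3 or stimulated library 1 or 3 (adjusted p = 0.2154, 0.05003, 0.0763 and 0.167). That of Itga2b, at -1.02, was lost without uninduced library 2 or 3 (-0.97 each) or stimulated library 3 (-0.85), and in clone 1 without uninduced library 2 (-0.99). The fall of Cdh1 in WT was -2.35, and -3.33 without WT stimulated library 1. Cdh26 was at 4.45 to 6.28 CPM in the 9 uninduced and at most 0.266 CPM in the 9 stimulated libraries. Itgal, the αL chain of leukocytes, had 84 counts in uninduced and 0 in stimulated clone 1, at least 33.1-fold lower. The response differed from that of WT for 8 members in clone 1 (5 higher and 3 lower), beside 8.81% of all genes (5.34% higher and 3.46% lower), and for 5 in clone 2 (3 higher and 2 lower), beside 7.85% (4.89% and 2.96%). Itga6 and Cdh1 were called in both.

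Of the cadherins, the mesenchymal ones were the most abundant and changed little. Cdh11 was at 497, 510 and 490 CPM in WT uninduced and 572, 545 and 542 CPM in WT stimulated libraries, at 506, 516 and 519 CPM and then 370, 368 and 395 CPM in clone 1, and at 430, 418 and 436 CPM and then 443, 439 and 449 CPM in clone 2. In stimulated cells its log2 difference from WT was -0.55 ± 0.04 in clone 1 (adjusted p = 8.18e-13) and -0.32 ± 0.04 in clone 2 (adjusted p = 8.26e-08), under the fold threshold. Cdh2 was at 267, 270 and 259 CPM in WT uninduced and 389, 400 and 383 CPM in WT stimulated libraries. It was at 284, 296 and 292 CPM and then 426, 437 and 451 CPM in clone 1, and at 282, 261 and 289 CPM and then 362, 374 and 358 CPM in clone 2. Its log2 differences from WT were 0.13 and 0.06 in uninduced clones 1 and 2 and 0.16 and -0.10 in stimulated ones.

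Cdh6 (K-cadherin, chromosome 15, 13028701 to 13173675) was almost confined to WT stimulated libraries, at 4.45, 4.92 and 4.87 CPM. It passed the filter on low counts only through this group, so its tests against this group are not independent of that filter. It was at 0, 0 and 0.0381 CPM in WT uninduced and at 0, 0 and 0.0518 CPM in uninduced clone 1 libraries, with no count in uninduced clone 2, and at 0.426, 0.369 and 0.273 CPM in stimulated clone 1 and at 0, 0 and 0.180 CPM in stimulated clone 2. It fell relative to WT in stimulated cells by 3.72 ± 0.52 in clone 1 (adjusted p = 4.86e-07) and was at -6.17 ± 0.69 in clone 2 (adjusted p = 1.26e-08), the latter -9.71 without stimulated library 3 of clone 2. Cdh10, a neuronal type II cadherin, was at 7.63, 9.59 and 6.98 CPM in WT uninduced and 24.4, 25.9 and 25.8 CPM in WT stimulated libraries. It was at 4.97, 3.11 and 3.68 CPM and then 3.14, 3.13 and 3.14 CPM in clone 1, and at 0.112, 0.221 and 0.116 CPM and then 0.448, 0.131 and 0.661 CPM in clone 2. In stimulated cells it fell by 3.01 ± 0.19 in clone 1 (adjusted p = 1.25e-14) and was at -5.89 ± 0.26 in clone 2 (adjusted p = 4.31e-18). The uninduced fall by 1.03 in clone 1 was -0.89 without WT uninduced library 2 or library 2 of clone 1 and -0.99 without its library 3.

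Cdh18, on the same chromosome, was at 4.78, 5.82 and 4.92 CPM in WT uninduced and 3.33, 3.84 and 3.83 CPM in WT stimulated libraries. Clone 1 had 1.38, 0.965 and 1.24 CPM and then 1.76, 1.33 and 1.64 CPM, and clone 2 had 0.223, 0.576 and 0.348 CPM and then 0.168, 0.588 and 0.180 CPM. It was lower than WT in both clones and both treatments, with log2 differences of -1.23 ± 0.30 and -3.57 ± 0.40 in stimulated clones 1 and 2 (adjusted p = 0.000973 and 7.22e-09), the latter -4.36 without library 2. Cdh1 was low everywhere, with 354 counts in all. It was at 0.874, 0.419 and 0.877 CPM in WT uninduced, 0.871, 0.697 and 1.40 CPM in uninduced clone 1 and 2.63, 3.23 and 2.90 CPM in uninduced clone 2, which was higher than WT by 1.99 ± 0.47 (adjusted p = 0.000743). After stimulation it was at 0.293, 0.0864 and 0.0451 CPM in WT, had 0 counts in clone 1, and was at 0.0560, 0 and 0 CPM in clone 2. Stimulated clone 1 was at least 3.09-fold below WT, and its call was lost without WT stimulated library 1 (adjusted p = 0.0588). The 9 epithelial markers summed to 0.310 to 0.580 CPM in uninduced clone 2 and 0.105 to 0.466 CPM in WT uninduced libraries. In uninduced clone 1, where Cdh1 was not a DEG relative to WT, they summed to 0 to 2.43 CPM.

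Cdh13 (T-cadherin), a receptor for adiponectin that has no cytoplasmic tail, rose above WT in stimulated clone 1 by 1.72 ± 0.07 (adjusted p = 6.72e-19), with 82.3 to 85.1 CPM against 24.5 to 27.1 CPM. In stimulated clone 2, at 35.5 to 41.6 CPM, the log2 difference was 0.60. The 5 adipocyte markers summed to 15.01 to 19.1 CPM in stimulated clone 1 and at most 1.55 CPM in every other group. Plin1 and Cidec made up most of this, Lep was at 0 in all groups, and the part of adipocyte-like cells in the Cdh13 values was not tested.

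The genes around these receptors were counted over lists. Of 33 tested integrin adaptors and kinases, 2 were higher and 5 lower in stimulated clone 1 relative to WT, and 4 higher and 2 lower in clone 2. Of all genes tested, 9.42% were higher and 9.6% lower in clone 1 and 7.95% and 8.94% in clone 2. The median log2 difference of the list was -0.03 and -0.20, beside -0.02 and -0.01 for all genes. Tns1 and Tns2, tensins of fibrillar adhesions, were higher in both clones (by 1.70 and 1.78 in clone 1 and by 3.33 and 1.79 in clone 2), and the focal adhesion protein zyxin (Zyx) was lower (-1.74 and -1.28). Of 13 tested cadherin partners, 1 was lower in clone 1 and 2 in clone 2 (9.6% and 8.94% of all genes were), and 0 were higher in either. The list medians were -0.04 and 0.33. Jup, which encodes plakoglobin, had a mean level in stimulated cells of 4.62 ± 0.221 (SD, n = 3) for WT, 0.0833 ± 0.114 for clone 1 and 0.0187 ± 0.0323 for clone 2, in CPM. It was a DEG below WT in both clones before stimulation as well, with means of 21.5, 0.866 and 0.185 CPM in WT and clones 1 and 2.

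Of 29 tested integrin ligands, 12 rose and 3 fell in WT on stimulation, beside 6.25% and 13.6% of all genes. The list median was 0.95 and that of all genes -0.04. Relative to WT in stimulated cells, 1 was higher and 7 lower in clone 1, and 3 were higher and 9 lower in clone 2 (9.42% and 9.6% of all genes in clone 1, 7.95% and 8.94% in clone 2), with list medians of -0.49 and -0.27 beside -0.02 and -0.01 for all genes. Col4a1, of basement membrane collagen, was higher by 2.35 and 1.86. The log2 differences in clones 1 and 2 were -1.61 and -1.46 for the thrombospondin gene Thbs1, -3.38 and -12.9 for Thbs2, and -4.33 and -2.90 for the laminin chain Lama2. Thbs2 was at 199 ± 4.85 CPM (SD, n = 3) in stimulated WT and 0.0218 ± 0.0377 CPM in stimulated clone 2. The value of -12.9 is thus a fitted one near 0 counts and gives no measured size. Npnt, the ligand of α8β1, had 251 counts in WT stimulated cells and 0 in either stimulated clone, at least 86.3-fold lower in clone 1 and 63.3-fold in clone 2. Npnt was already a DEG below WT in both clones before stimulation, with means of 29.95 CPM in WT, 0.156 in clone 1 and 0.352 in clone 2. In WT its mean after stimulation was 3.80 CPM.

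Between the clones, 9 members were DEGs in uninduced cells (6 higher and 3 lower in clone 1), beside 8.67% of all genes (4.89% and 3.78%), and 10 in stimulated cells (9 higher and 1 lower), beside 9.98% (5.5% and 4.48%). Itga11 was higher in stimulated clone 1 than in clone 2 by 5.21 ± 0.42 (adjusted p = 5.47e-08), and Itga1 by 2.21 ± 0.08 (adjusted p = 1.88e-19). Itgb8 was the 1 member lower in clone 1, at -6.86 ± 0.38 (adjusted p = 3.35e-15). Without stimulated library 1 of clone 1 the value was -8.10, and Itga11 without library 1 of clone 2 was higher by 6.06.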

How the data were processed

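RNA was sequenced from 18 libraries of 6 groups, with poly(A) enrichment per the labels. The authors mapped reads to GRCm38 (mm10) with HISAT2 and deposited raw counts per gene with gene positions and lengths. Neither labels nor methods name the counting program, annotation or strandedness (not given in the sources used here). Start, end and length of all 50 members matched GENCODE M21. Without a known strand setting, reads of overlapping genes cannot be told apart.

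The raw counts were fitted with edgeR 4.0.16 under R 4.3.3 (filterByExpr with a minimum count of 10, TMM, glmQLFit robust, glmQLFTest, 1 mean per group over all libraries) and DESeq2 1.42.0 as an alternative, and adjusted after Benjamini and Hochberg over 14317 genes. Fits were checked on simulated data. Figures used Python 3.11.15 and matplotlib 3.10.9. FPKM divided CPM by listed length in units of 1000 bases. Floors of 3 counts cover counting error only, and depth was 15576685 to 42005596 counts.

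Values per library are given for members where a mean of 5 CPM was reached in a group and a call was shared in direction by both clones, with Itgb1, Itgav, Itga5, Itgb3, Cdh1, Cdh2, Cdh11, Itga2 and Cdh6 added. Itga1, Itga9 and Itgb8 lie outside this rule and were given by library after their values were seen. List genes needed 5 CPM and a shared call in stimulated clones. Members, lists and promoter motifs were chosen with earlier results of these data known. Promoters are from RefSeq (GRCm38.p6). Alternatives were DESeq2, its size factors, other filters, only the groups compared, a replicate block, no fold threshold, glmTreat, each library left out, and shares from CPM.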

Additional observations from a re-analysis of the deposited data

Results flagged for a closer look

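The response to stimulation differed between a clone and WT, by the interaction term in edgeR, for 13 pairs of gene and clone. As log2 differences in response (clone minus WT), the values in clone 1 were higher for Itga6 (2.89), Itgb4 (1.39), Itgb3 (1.35), Cdh13 (1.1955) and Itga1 (1.06) and lower for Cdh1 (-5.07), Itgb8 (-2.32) and Cdh10 (-1.98). In clone 2 they were higher for Itga9 (4.96), Itga8 (2.21) and Itga6 (1.83) and lower for Cdh1 (-4.47) and Itga11 (-4.12). Stimulated clone 1 had 0 counts of Cdh1 and stimulated clone 2 had 1, so both Cdh1 values are fitted ones that depend on the prior count and give no measured size. Mean Itga9 in clone 2 was 0.0074 CPM uninduced and 0.135 CPM stimulated, a response that was not called, against 3.10 and 0.827 CPM in WT. The Itga9 value thus also rests on a group near 0 and gives no measured size. For Itga8, uninduced clone 2 was already below WT (means of 7.58 and 22.9 CPM), and the stimulated means were 3.85 and 2.49 CPM. Both clones are set against the same WT libraries. Without WT stimulated library 1 the Cdh1 values were -4.09 (adjusted p = 0.0745) and -3.48 (adjusted p = 0.0982). The Itgb8 value was -1.74 without uninduced library 3 of clone 1 (adjusted p = 0.0614), and the Itga1 value 0.9836 without WT uninduced library 1 and 0.975 without stimulated library 2 of clone 1. The Itga9 value was 4.41 and 4.74 without stimulated library 1 or 3 of clone 2 (adjusted p = 0.0969 and 0.0576), and the Itga11 value was -4.96 without stimulated library 1 of clone 2. With 3 libraries a group, single libraries far from the others were not tested for.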

How the results depend on the processing

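Counts of members called moved by over 1.5 times only when the call rule changed. With no fold threshold they were 17 and 22 for uninduced clones 1 and 2 relative to WT, 13 and 13 for the differences in response, and 15 and 19 for clone 1 relative to clone 2 in uninduced and stimulated cells. With glmTreat, which tests against the threshold, they were 9 for the response of clone 2, 3 and 2 for the differences in response and 6 for the clones in stimulated cells. Leaving out 1 library gave 6 to 8 and 13 to 14 (uninduced clones 1 and 2), 17 to 18 and 15 to 17 (stimulated), 18 to 20, 15 to 16 and 12 to 16 (response of WT, clones 1 and 2), 7 to 9 and 4 to 6 (differences in response), and 9 to 9 and 9 to 12 (clone 1 relative to clone 2). The shares of all tested genes called under these and the other alternative settings were not counted, so these counts have no background beside them.

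Signs turned only for differences that were not called. Itgb1 in uninduced clone 2 was 0.0413 with no filter, 0.0031 with only the groups compared and -0.0081 to 0.0114 without 1 library. Itgav in stimulated clone 2 was -0.0013 with no filter and -0.0083 to 0.0728 without 1 library, and in stimulated clone 1 -0.0833 to 0.0144. Without 1 library Itga10 in uninduced clone 1 was -0.0196 to 0.8582, the response of Itga1 in WT -0.0237 to 0.1103, that of Itga11 in clone 2 -0.4396 to 0.837 and its difference in response in clone 1 -0.5539 to 0.1578. The cause was not tested. Over all alternatives, log2 values of single genes kept direction and call in 2469 instances, lost the call in 70 and gained it in 36.

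Deviations from group means had a median r of -0.0125 over 45 pairs of same-numbered libraries of different groups (-0.221 to 0.153). Over the 90 pairs with different numbers it was 0.00409 (-0.215 to 0.287). The main fit did not pair libraries by number, and a pairing within single groups was not tested. With a replicate block 19 members were called in stimulated clone 1 in place of 17, and the other 10 counts were the same. As a share of CPM, not divided by length, Itga11 held 24.1% of α subunits in stimulated WT. Depth limits Itga2, Cdh1 and Cdh6, with 142, 354 and 342 counts in all.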
